A study of Mus musculus with 24 samples.

Results

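Alcam, Marcks, Man1a, Vill, Lpin2, Scnn1a, S100a6 and Ly6a are 8 of the 24007 genes measured in sorted mouse mammary epithelium. They were chosen by their level in luminal progenitors (LP), which was higher in every Id4 knockout (KO) library than in every wild-type (WT) library. The question addressed was whether they are transcripts of mature luminal (ML) cells or not. The choice rests on KO and WT values in LP, so that contrast is described below without a test. The tests concern the differences between populations, and KO against WT in ML and basal cells.

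Both genotypes were FVB/N females of 10 to 12 weeks in estrus, and the labels name no treatment. The KO mice come from an Id4 knockout line published earlier, and the sources used here name no Cre or tissue-specific driver. The groups were KO ML and WT ML, KO basal and WT basal, and KO LP and WT LP, with 4 replicates each and 24 libraries in all. Each replicate pooled glands of 4 to 8 mice. Live cells negative for lineage markers were sorted on CD24, CD29 and CD61. Basal cells were CD29 high and CD61 positive, LP were CD29 low and CD61 positive, and ML cells were CD29 low and CD61 negative. From 0.5 to 2 ng of RNA was amplified for each library.

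In the mammary duct an outer basal, myoepithelial layer surrounds luminal cells. The luminal layer holds progenitors that express Kit and Elf5 and give rise to milk-secreting cells, and mature cells that express the oestrogen, progesterone and prolactin receptors and sense hormones. ID4 is a helix-loop-helix protein without a DNA-binding domain, which binds E proteins and keeps them from E-boxes, the CANNTG sites they recognise.

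Marker sums were highest in the population that the label of the sort names. The sum over 20 hormone-sensing genes was 6285 to 10917 CPM (counts scaled to library size with 1 TMM scaling for all 24 libraries) in KO ML, 8402 to 10726 in WT ML, 1139 to 2241 in KO LP and 753 to 1129 in WT LP. The sum over 16 progenitor genes was 286 to 1041 CPM in KO ML and 274 to 710 CPM in WT ML, against 3230 to 6076 CPM in KO LP and 3333 to 6495 CPM in WT LP. In basal cells it was 771 to 1407 CPM in KO and 863 to 2742 CPM in WT libraries, highest in WT replicate 2. In that library 12 milk genes summed to 24669 CPM, against 451 to 1225 CPM in the other WT basal libraries. The hormone-sensing sum in basal cells, 658 to 1066 CPM in KO and 747 to 1280 CPM in WT libraries, overlapped that of WT LP. The 15 basal genes summed to 11771 to 16808 CPM in KO basal and 9644 to 16439 CPM in WT basal cells, and to at most 227 CPM in any LP library. The LP libraries held 3786231 to 6590315 counts in KO and 4227084 to 7246443 counts in WT. Id4 averaged 5.86 ± 5.58 CPM in KO basal cells against 42.2 ± 31.3 CPM in WT basal cells (SD, n = 4 each). In LP and ML no library of either genotype held more than 7 Id4 counts.

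All 8 genes are protein coding. On mm10, with the GENCODE annotation, Alcam (ENSMUSG00000022636) lies at chr16:52248996-52454074 and Marcks (ENSMUSG00000069662) at chr10:37133375-37138920, both on the minus strand. Man1a (ENSMUSG00000003746) lies at chr10:53904785-54076609 on the minus strand, where 2 annotated noncoding genes overlap it on the other strand. Vill (ENSMUSG00000038775) lies at chr9:119052778-119071525, Lpin2 (ENSMUSG00000024052) at chr17:71182560-71249817, Scnn1a (ENSMUSG00000030340) at chr6:125320659-125344943 and S100a6 (ENSMUSG00000001025) at chr3:90612882-90624181, all on the plus strand. Ly6a (ENSMUSG00000075602) lies at chr15:74994877-74998031 on the minus strand. Marcks and Man1a share chromosome 10. Reads of the noncoding genes over Man1a cannot be told from its own without strand-specific counting, which the sources used here do not state. The noncoding gene Gm26561 overlaps Lpin2 on the same strand, so strand would not tell their reads apart. Ly6a has close paralogs in the Ly6 cluster, so its estimated counts are uncertain to that extent.

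Because ID4 acts through E-box-binding partners, the 250 bases before annotated starts were searched for CANNTG, which reads the same on both strands, in RefSeq promoters on GRCm38.p6. The table held 7 promoters of 5 of the genes, Lpin2 with 3 starts, and 4 of these 7 contained a CANNTG, against 66.2% of all 32851 promoters. The letters CACCTG or CAGGTG, a subset of CANNTG, occurred in 1 of the 7 and in 17.2% of all, and CACGTG, another subset, in 1 of the 7 and in 6.02% of all. CAGCTG, also a subset, was in 0 of the 7 and in 13% of all. GGTCA or TGACC, letters shared by many nuclear receptor sites, occurred in 3 of the 7 and in 35.2% of all, and GATAA or TTATC in 1 of the 7 and in 22.6%. A match of letters is a description of the window only. The sequences below, 5′ to 3′ and without bases of the gene's annotated exons, show a promoter with the CANNTG near its middle, one with CACGTG just before 1 of the 3 Lpin2 starts, and one without any, with CANNTG in capitals.
S100a6 (chr3:90612644-90612881, + strand): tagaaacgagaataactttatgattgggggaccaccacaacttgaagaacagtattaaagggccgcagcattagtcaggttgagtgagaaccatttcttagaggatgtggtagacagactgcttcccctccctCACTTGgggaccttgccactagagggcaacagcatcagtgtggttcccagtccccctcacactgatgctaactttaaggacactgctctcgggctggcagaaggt
Lpin2 (chr17:71183282-71183531, + strand): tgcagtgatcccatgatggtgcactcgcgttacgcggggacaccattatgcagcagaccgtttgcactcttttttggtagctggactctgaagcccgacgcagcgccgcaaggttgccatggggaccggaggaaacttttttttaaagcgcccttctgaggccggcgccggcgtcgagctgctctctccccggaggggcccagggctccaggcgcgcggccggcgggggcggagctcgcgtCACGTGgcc
Vill (chr9:119052528-119052777, + strand): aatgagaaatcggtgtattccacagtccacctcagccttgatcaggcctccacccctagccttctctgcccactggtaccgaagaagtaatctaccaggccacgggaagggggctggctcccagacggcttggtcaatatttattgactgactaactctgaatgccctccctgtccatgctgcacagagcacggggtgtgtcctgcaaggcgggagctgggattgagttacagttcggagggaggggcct

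Alcam, Vill and Ly6a were highest in ML, lower in LP and lowest in basal cells. ALCAM (CD166) is an immunoglobulin superfamily protein of cell-cell adhesion. Alcam was at 524.2, 328.8, 609.9 and 523.4 CPM in KO ML replicates 1 to 4 and at 387.5, 413.7, 472.3 and 384.5 CPM in WT ML. It was at 39.0, 60.1, 50.1 and 39.1 CPM in KO basal and at 25.2, 46.9, 55.2 and 20.1 CPM in WT basal cells. In LP it was at 128.9, 182.1, 161.4 and 121.3 CPM in KO, against 76.1, 77.2, 70.6 and 85.4 CPM in WT libraries. Every ML library was above every LP library, and every basal library below every LP library. The KO LP libraries lay 1.42-fold or more above the highest WT LP library, and the KO LP mean was 1.92-fold the WT LP mean. VILL is a villin-like protein of the gelsolin family. In ML Vill was at 25.5, 18.4, 33.4 and 35.7 CPM in KO and at 37.1, 26.6, 15.7 and 20.3 CPM in WT libraries. In basal cells it reached 3.58 CPM at most and was at 0 counts in KO replicate 4 and WT replicate 2, where 3 counts would be 0.706 and 0.589 CPM. It was at 15.1, 16.1, 11.8 and 15.3 CPM in KO LP and at 5.17, 3.53, 5.54 and 4.11 CPM in WT LP. This was the widest gap of the 8 genes, with the lowest KO LP library 2.14-fold above the highest WT LP library. WT ML replicate 3 was below KO LP replicate 2, so ML and LP overlapped for Vill.

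Ly6a encodes Sca-1, a GPI-anchored surface protein used to mark hormone-sensing luminal cells in mouse mammary gland. In ML the values were 195.1, 46.8, 94.5 and 181.7 CPM in KO and 301.3, 181.5, 144.8 and 232.3 CPM in WT libraries. In LP Ly6a was at 69.7, 34.2, 67.2 and 39.7 CPM in KO and at 21.2, 27.7, 13.7 and 32.9 CPM in WT libraries. KO ML replicate 2 lay below KO LP replicates 1 and 3, and the basal values, given with the genotype comparison, were all below those of KO LP. Ly6a was the gene nearest to the limit of the choice, since its lowest KO LP library was 1.04-fold above its highest WT LP library.

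Marcks, Man1a and Lpin2 had higher means in ML and basal cells than in LP, with some libraries overlapping. MARCKS is a protein kinase C substrate that links membrane and actin. In ML Marcks was at 136.2, 96.7, 42.6 and 122.8 CPM in KO and at 162.1, 125.0, 107.8 and 87.4 CPM in WT libraries. In basal cells it was at 130.3, 125.0, 97.2 and 141.3 CPM in KO and at 254.3, 123.4, 119.2 and 93.6 CPM in WT libraries. In LP it was at 58.6, 72.8, 24.6 and 49.0 CPM in KO, against 20.5, 17.3, 15.9 and 22.5 CPM in WT libraries. KO replicate 3 was the lowest KO library in all 3 populations, and the ML and basal ranges overlapped. KO ML replicate 3 lay below KO LP replicates 1, 2 and 4. MAN1A is a Golgi alpha-mannosidase that trims N-glycans. Man1a was at 654.6, 170.6, 495.8 and 864.6 CPM in KO ML and at 570.2, 207.8, 609.7 and 710.8 CPM in WT ML. In basal cells Man1a was at 192.5, 156.5, 400.0 and 314.6 CPM in KO and at 237.3, 133.0, 307.2 and 222.4 CPM in WT libraries. It was at 59.0, 135.3, 62.7 and 94.5 CPM in KO LP and at 35.2, 24.7, 28.9 and 46.7 CPM in WT LP. In both genotypes ML replicate 2 was far below the other ML replicates and within the basal range. KO LP replicate 2 lay just above WT basal replicate 2. LPIN2 is a phosphatidate phosphatase of glycerolipid synthesis. Lpin2 was at 185.3, 179.3, 154.2 and 142.4 CPM in KO ML and at 286.5, 133.3, 184.5 and 174.8 CPM in WT ML. It was at 112.6, 68.8, 75.1 and 72.8 CPM in KO basal and at 118.7, 47.1, 55.8 and 93.1 CPM in WT basal cells. In LP it was at 28.1, 82.6, 64.2 and 46.2 CPM in KO and at 21.9, 19.4, 22.6 and 26.9 CPM in WT libraries. All ML libraries were above all basal libraries, and KO LP replicate 1 lay just above the WT LP range. KO LP replicate 2 lay above KO basal replicates 2, 3 and 4 and above WT basal replicates 2 and 3.

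Scnn1a and S100a6 were high in ML, and basal cells and LP both had lower levels. SCNN1A is the alpha subunit of the epithelial sodium channel. In ML Scnn1a was at 178.0, 106.6, 240.0 and 167.2 CPM in KO and at 81.9, 143.8, 119.5 and 112.9 CPM in WT libraries. In basal cells it was at 5.48, 1.13, 22.1 and 32.7 CPM in KO and at 4.35, 20.8, 25.3 and 9.61 CPM in WT libraries, a wide spread within each genotype. In LP it was at 30.1, 37.2, 76.7 and 35.5 CPM in KO and at 4.16, 21.9, 8.67 and 14.9 CPM in WT libraries. KO LP replicate 3 stood apart from the other 3 KO libraries, and without it the log2 fold change of KO over WT in LP was 1.47. S100A6 (calcyclin) is a small EF-hand calcium-binding protein. In ML S100a6 was at 169.5, 77.2, 217.5 and 286.8 CPM in KO and at 75.8, 154.7, 125.7 and 193.9 CPM in WT libraries. In basal cells it stayed between 30.2 and 42.6 CPM in KO and between 22.6 and 30.5 CPM in WT libraries. In LP it was at 30.7, 35.0, 67.9 and 49.2 CPM in KO and at 9.07, 12.4, 11.8 and 28 CPM in WT libraries, with WT LP replicate 4 close to the KO LP range.

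**Figure D1:**
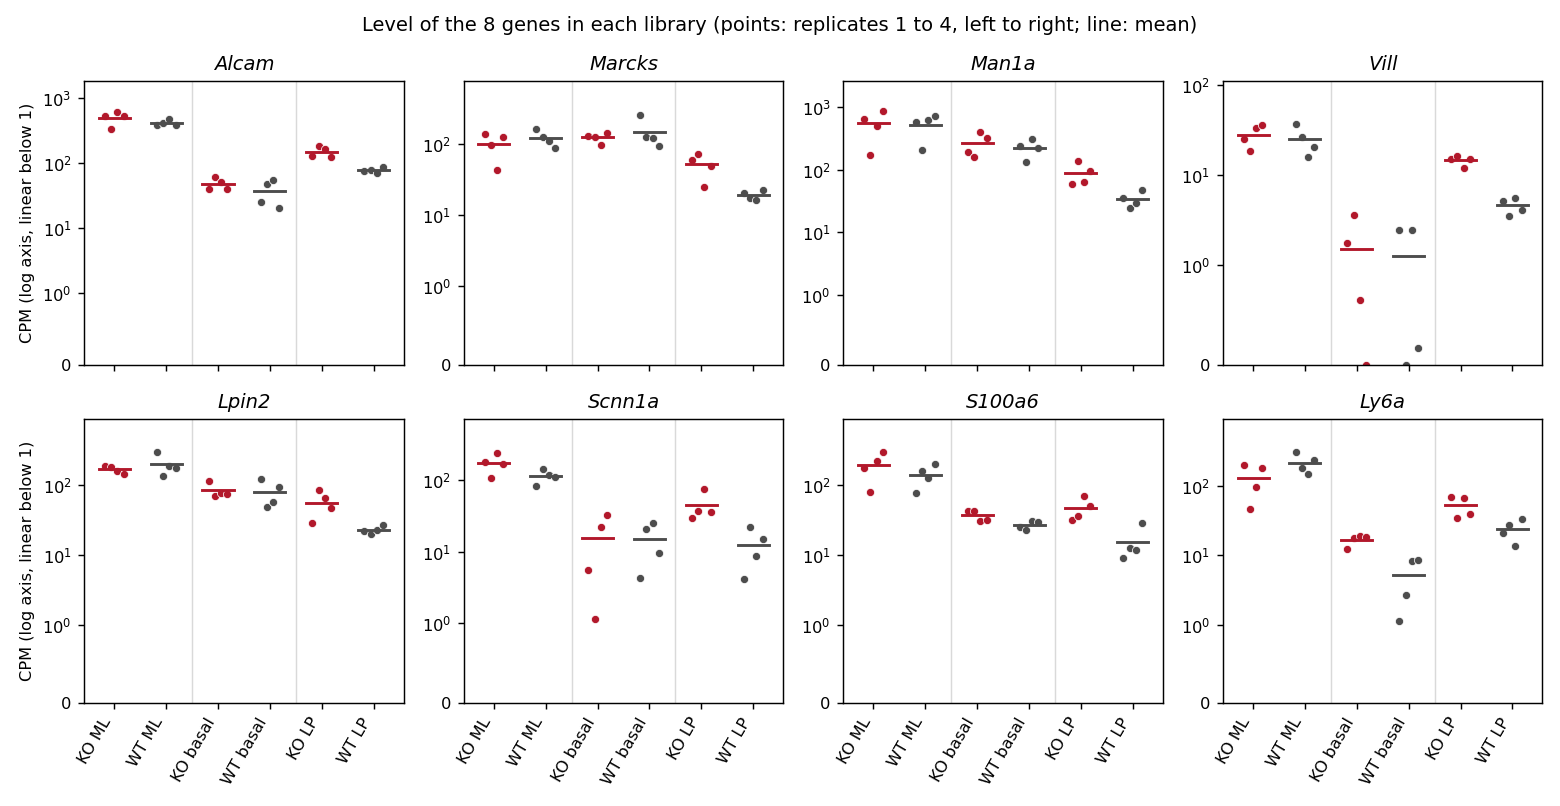
CPM of each of the 8 genes in every library (log axis, linear below 1), with KO left of WT in ML, basal cells and LP. Points are replicates and lines are group means; the KO LP mean lies between the WT LP mean and both ML means for each gene, and Vill reaches at most 3.58 CPM in basal cells.

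Per kilobase of gene length, the order of the mean levels in WT ML was S100a6 at 270.3, Ly6a at 260.0, Alcam at 127.4, Man1a at 127.3, Scnn1a at 45.1, Lpin2 at 42.4, Marcks at 29.8 and Vill at 9.46 CPM per kb. In WT LP the levels were S100a6 at 30.1, Ly6a at 28.9, Alcam at 23.8, Man1a at 8.22, Lpin2 at 4.95, Scnn1a at 4.88, Marcks at 4.71 and Vill at 1.74 CPM per kb. In WT ML the neighbours S100a6 and Ly6a, Alcam and Man1a, and Scnn1a and Lpin2 differed by less than their spread between replicates. So did S100a6 and Ly6a, and Lpin2, Scnn1a and Marcks, in WT LP. Lpin2 and Marcks in WT ML, and Ly6a and Alcam in WT LP, differed by less than the spread of the first gene named.

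All 8 genes passed as higher in ML than in LP with the genotypes averaged, by edgeR's quasi-likelihood test over 14082 genes, of which 7.83% were called higher and 10.6% lower. KO LP and WT LP weigh the same in this mean, so the choice of the genes would leave the LP mean unshifted if both spread alike. In CPM the SD of each gene was larger in KO LP than in WT LP, as for Alcam at 28.4 against 6.13 CPM. A shift of the LP mean by the choice is therefore possible. The LP libraries of the choice also enter this test, and a choice by separation can favour genes of small spread within LP. The p-values and the count of 8 are therefore not independent of the choice, and the same holds for basal cells against LP. The 8 are also only a part of the 175 genes separated in this way in LP. They were chosen with earlier results of these data known, so the count of 8 gives no share among those 175 genes. The log2 fold change of Man1a was 3.29 (SE 0.31, edgeR adjusted p = 1.5e-08) and that of S100a6 was 2.60 (SE 0.27, edgeR adjusted p = 6.6e-08). For Scnn1a it was 2.58 (SE 0.45), for Lpin2 2.34 (SE 0.23), for Ly6a 2.23 (SE 0.32), for Alcam 2.08 (SE 0.19) and for Marcks 1.81 (SE 0.25), with edgeR adjusted p-values up to 0.000147 for Scnn1a. Vill had the smallest difference, 1.70 (SE 0.51, edgeR adjusted p = 0.0172). The choice made WT LP low and KO LP high for these genes, so a fit of 1 genotype against LP is shifted by it, toward a larger ML difference in WT and a smaller one in KO libraries, and is no support in either direction. In KO libraries alone 4 of 8 passed, and Marcks (0.93, edgeR adjusted p = 0.177), Vill (0.93, edgeR adjusted p = 0.622), Scnn1a (1.91, edgeR adjusted p = 0.104) and Ly6a (1.26, edgeR adjusted p = 0.0905) did not, each with a log2 fold change above 0. Vill also missed the threshold within replicates 1 and 2 alone (edgeR adjusted p = 0.179) and within replicates 3 and 4 alone (edgeR adjusted p = 0.141).

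Against basal cells, 7 of the 8 genes were called higher in ML, where 16.7% of all genes were called higher and 19.1% lower. The log2 fold change was 4.24 for Vill (SE 0.58), 4.16 for Ly6a (SE 0.36), 3.45 for Alcam (SE 0.20), 3.23 for Scnn1a (SE 0.47) and 2.36 for S100a6 (SE 0.27). Lpin2 at 1.15 (SE 0.22) and Man1a at 1.13 (SE 0.29) differed less. Marcks was at -0.30 (SE 0.24, edgeR adjusted p = 0.348) and was not called. Man1a missed the threshold within replicates 1 and 2 alone (edgeR adjusted p = 0.0835) and within KO libraries alone (edgeR adjusted p = 0.135), and Lpin2 within replicates 1 and 2 alone (edgeR adjusted p = 0.0510).

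Basal cells set against LP divided the genes. Man1a at 2.16 (SE 0.30), Marcks at 2.11 (SE 0.25) and Lpin2 at 1.18 (SE 0.22) were called higher in basal cells, where 14.8% of genes were called higher. Vill at -2.54 (SE 0.55), Ly6a at -1.93 (SE 0.33) and Alcam at -1.37 (SE 0.19) were called lower, where 13.7% of genes were. Scnn1a at -0.65 (SE 0.44, edgeR adjusted p = 0.301) and S100a6 at 0.24 (SE 0.26, edgeR adjusted p = 0.547) were not called. Lpin2 was not called within KO libraries alone (0.62, edgeR adjusted p = 0.210). Vill was not called within WT libraries alone (edgeR adjusted p = 0.125) or within replicates 1 and 2 alone (edgeR adjusted p = 0.0598). In both genotypes 7 of the 8 genes had their highest mean in ML. Marcks averaged 99.6 ± 41.4 CPM in KO ML and 120.6 ± 31.7 CPM in WT ML, below its means in basal cells of 123.5 ± 18.7 CPM for KO, against 147.6 ± 72.3 CPM for WT (SD, n = 4 each), a difference that did not pass the test above.

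**Figure D2:**
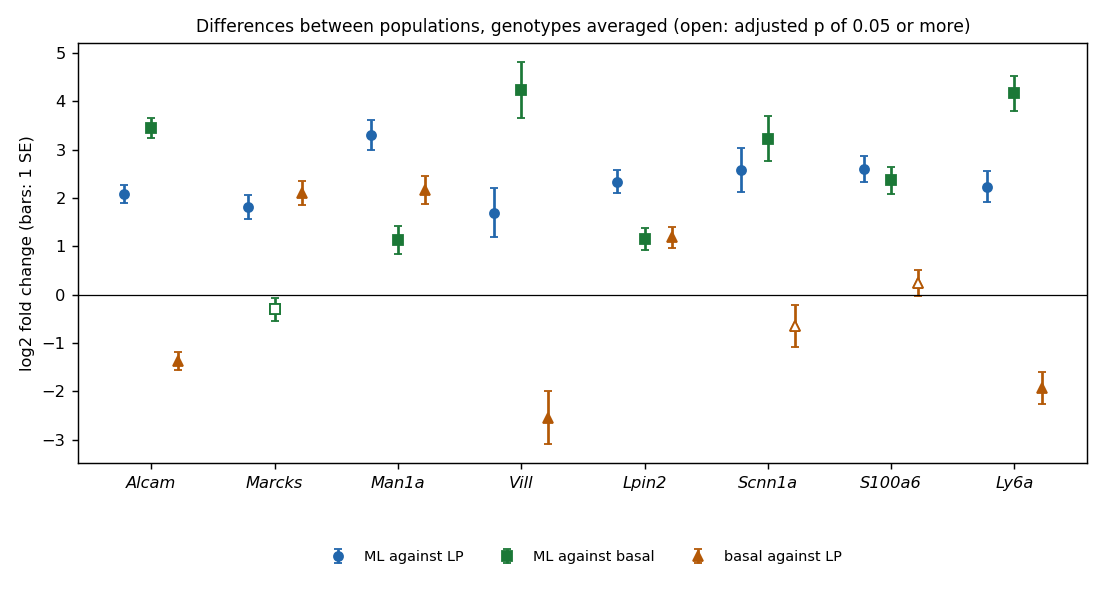
log2 fold change with 1 SE of ML against LP, ML against basal and basal against LP, genotypes averaged, for each gene; open symbols have an edgeR adjusted p of 0.05 or more. All circles (ML against LP) lie above 0, whereas the triangles (basal against LP) lie above 0 for Marcks, Man1a and Lpin2 and below 0 for Alcam, Vill and Ly6a.

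In the LP libraries on which the choice was made, 175 of 11700 genes (1.5%) had every KO library above every WT library, the 8 by construction among them. The log2 fold change of KO over WT was 1.87 for Scnn1a (SE 0.47), 1.67 for Vill (SE 0.38), 1.58 for S100a6 (SE 0.39), 1.42 for Marcks (SE 0.32), 1.37 for Man1a (SE 0.31), 1.28 for Lpin2 (SE 0.32), 1.14 for Ly6a (SE 0.33) and 0.94 for Alcam (SE 0.21). Over all genes, edgeR called 0 (0%) at an adjusted p under 0.05, 439 at an unadjusted p under 0.05, DESeq2 8 and limma voom 0. Replicates 1 and 2 gave larger values than replicates 3 and 4 for Marcks (1.81 and 0.91) and Man1a (1.72 and 1.03), and smaller ones for Scnn1a (1.41 and 2.22). In bulk libraries, more cells of another type in the sort and more RNA per cell cannot be told apart.

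In LP edgeR called 0 of 11700 genes between KO and WT, so 0 calls among the hormone-sensing genes is no result about that list. The summed level of the list was 1375, 2241, 1139 and 1511 CPM in KO LP, against 866, 938, 753 and 1129 CPM in WT LP, so KO replicate 2 was the highest and the lowest KO library was just above the highest WT library. Of 20 genes, 16 were tested and 0 were called. A fitted value above 0 was found for 14, while Gata3 (-0.37) and Stat5a (-0.11) were below 0. The median log2 fold change was 1.04, against 0.0029 over all genes. Esr1, Prlr, Tbx3 and Rcan1, 4 of the 16, had every KO library above every WT library, as 1.5% of all genes had. The list was chosen with earlier results of these data known. Prlr, the prolactin receptor, averaged 886.7 ± 233.3 CPM in KO LP and 503.5 ± 82.8 CPM in WT LP (SD, n = 4 each). Areg, an epidermal growth factor receptor ligand, averaged 162.5 ± 112.8 CPM in KO LP and 78.0 ± 34.4 CPM in WT LP. Its libraries overlapped, with the lowest KO LP library at 35.0 CPM and the highest WT LP library at 122.6 CPM. Without KO LP replicate 2, the log2 fold change of KO over WT in LP was 0.82 for Alcam, the lowest of the 8 genes, and 1.94 for Scnn1a, the highest.

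The position of each gene between WT LP (0%) and WT ML (100%) was computed for each KO LP library from the CPM means. For the summed hormone-sensing list it was 5.19%, 15.1%, 2.49% and 6.75% in KO LP replicates 1 to 4. Prlr made up most of this sum, with a mean of 6276 CPM in WT ML, where the sum was 8402 to 10726 CPM. Gene by gene, the 15 genes of the list called higher in ML than in LP had medians of 4.27%, 16.8%, 2.35% and 5.98%. Over the 8 genes the median was 16.3%, 27.7%, 24.5% and 18.1%, which the choice of genes high in KO LP favours. The members were spread widely within 1 library. In replicate 1 they ran from 3.11% for Lpin2 to 51.5% for Vill, and in replicate 2 from 5.38% for Ly6a to 56.8% for Vill. In replicate 3 they ran from 5.48% for Marcks to 63.0% for Scnn1a, and in replicate 4 from 8.27% for Ly6a to 52.5% for Vill. The order of the genes also changed between libraries, with Marcks at 38.9%, 52.9%, 5.48% and 29.5% and Scnn1a at 17.4%, 24.3%, 63.0% and 22.6%. WT LP libraries lay between -8.08% and 10.4% for these genes. Among 655 other genes called higher in ML, with at least 10 CPM and more than 2-fold the WT LP mean in WT ML, the middle 50% lay between -4.77% and 17.3%, 10.5% and 35.3%, -12.5% and 16.9%, and -2.99% and 17.2% in replicates 1 to 4. All these positions use the LP values on which the genes were chosen and are a description. The part of ML cells in the LP sort was not tested.

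**Figure D3:**
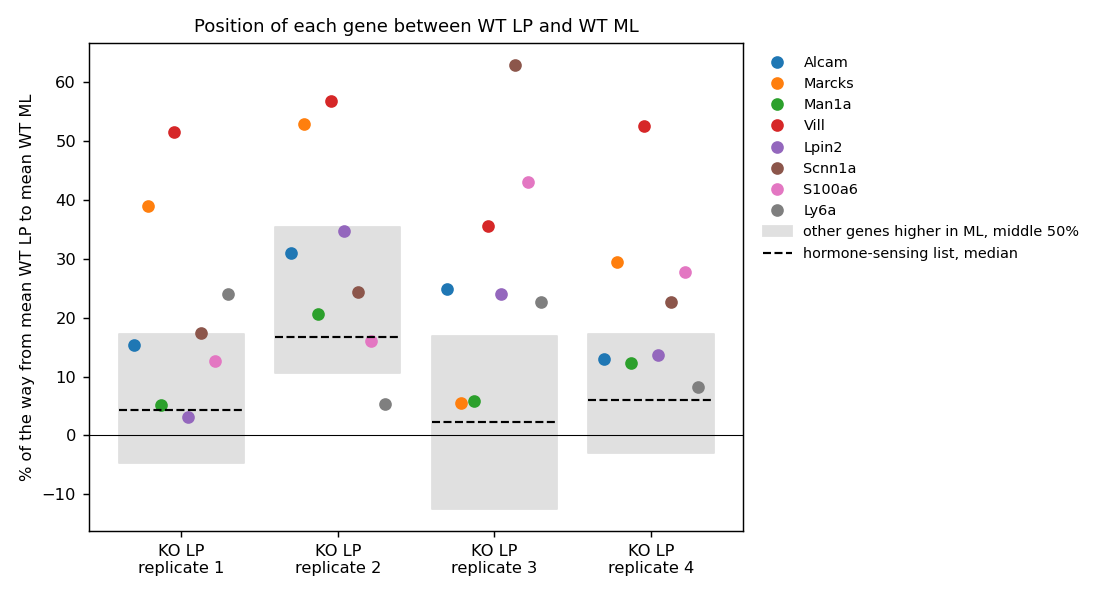
Position of each of the 8 genes between mean WT LP (0%) and mean WT ML (100%) in the 4 KO LP libraries, with the median of the 15 called hormone-sensing genes (dashed) and the middle 50% of 655 other genes higher in ML (grey). Vill lies at 35.6% to 56.8% in every library, while Marcks ranges from 5.48% to 52.9%.

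The summed markers of the other lists overlapped between KO LP and WT LP. The 10 fibroblast genes summed to 989, 228, 496 and 575 CPM in KO LP, against 183, 166, 228 and 737 CPM in WT LP, with 0 of 9 tested genes called and 9 with a fitted value above 0 (median 0.67). Fn1 averaged 202.8 ± 110.7 CPM in KO LP and 99.8 ± 105.3 CPM in WT LP, and Dcn averaged 117.6 ± 75.0 CPM in KO LP and 82.96 ± 60.7 CPM in WT LP (SD, n = 4 each). Ly6a, S100a6 and Marcks are also made by fibroblasts, and the part of these cells was not tested. The 16 progenitor genes had a median log2 fold change of -0.22 in LP, with Lcn2 at 2205 ± 723 CPM in KO, against 2383 ± 593 CPM in WT, and Hey1 at 367.9 ± 450.2 CPM in KO, against 603.7 ± 419.9 CPM in WT. Of these 16 genes, 6 had a fitted value above 0, among them Aldh1a3 at 1.29 (SE 0.41) and Ltf at 1.02 (SE 0.32). Milk genes had a median of -0.24, with 1 of 10 tested genes above 0. Csn3 was at 7599 ± 2163 CPM in KO, against 7917 ± 4470 CPM in WT, and Csn1s1 at 3948 ± 4273 CPM in KO, against 9851 ± 11750 CPM in WT. The summed milk genes were at 112763 CPM in WT LP replicate 2 and between 15227 and 22097 CPM in the other WT LP libraries. In KO LP they lay between 12041 and 34313 CPM. Pan-luminal genes had a median of 0.16, with 7 of 11 above 0. Krt8 was at 993.1 ± 279.9 CPM in KO, against 724.0 ± 251.3 CPM in WT, and Epcam at 760.2 ± 122.8 CPM in KO, against 815.8 ± 131.1 CPM in WT. Basal identity genes had a median of -0.28, with Oxtr at 51.3 ± 35.9 CPM in KO, against 62.3 ± 20.5 CPM in WT, and Sparc at 51.1 ± 16.7 CPM in KO, against 29.7 ± 8.75 CPM in WT. Summed pericyte genes lay between 68.2 and 124.0 CPM in KO LP and 84.6 and 126.2 CPM in WT LP, and Schwann genes between 93.5 and 142.7 CPM in KO LP and 91.6 and 142.9 CPM in WT LP. Endothelial genes lay between 6.39 and 57.8 CPM in KO LP and 23.1 and 40.3 CPM in WT LP, with Cldn5 at 0 in all 8 LP libraries. Immune genes lay between 9.18 and 25.3 CPM in KO LP and 9.45 and 28.6 CPM in WT LP, with Adgre1 among those at 0 in all 8, and adipocyte genes between 14.3 and 31.6 CPM in KO LP and 15.2 and 23.4 CPM in WT LP, with Plin1, Lep and Cidec at 0. Erythroid genes reached at most 1.19 CPM in KO LP and 0.756 CPM in WT LP, with Hba-a2 among those at 0 in all 8 libraries.

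In ML, the population with the highest levels of 7 of the genes, none of the 8 was called between KO and WT. edgeR called 1 gene of 11747 (0.00851%), which was Hspa1b, a heat-shock protein gene, at -1.46 (SE 0.19, edgeR adjusted p = 0.0450). With the replicate number as a block 0 genes were called. None of the 8 genes had every KO ML library above every WT ML library, as 1.24% of genes had, or below, as 1.41% had. Scnn1a was at 0.61 (SE 0.25) and Ly6a at -0.73 (SE 0.39), both with an edgeR adjusted p of 0.998. S100a6 was at 0.46 (SE 0.36), Alcam at 0.27 (SE 0.21), Vill at 0.18 (SE 0.31), Man1a at 0.07 (SE 0.45), Lpin2 at -0.22 (SE 0.23) and Marcks at -0.27 (SE 0.31).

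In basal cells edgeR called 0 of 11307 genes (0%), 383 at an unadjusted p under 0.05, while DESeq2 called 6 and limma voom 1. Vill was too low to be tested there, and the other 7 were not called. Ly6a was at 12.6, 17.5, 19.2 and 18.4 CPM in KO basal cells and at 1.16, 2.75, 8.45 and 8.62 CPM in WT basal cells. All 4 KO libraries were above all 4 WT libraries, as 1.07% of genes were, and 1.59% had all KO below all WT. The log2 fold change was 1.74 (SE 0.87, edgeR adjusted p = 0.998). The difference of the KO effect on Ly6a between ML and basal cells, tested after its values were seen, was -2.44 (SE 0.65, edgeR adjusted p = 0.434). The other 6 tested genes lay between -0.24 for Marcks and 0.47 for S100a6, with standard errors of 0.33 to 0.94.

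**Figure D4:**
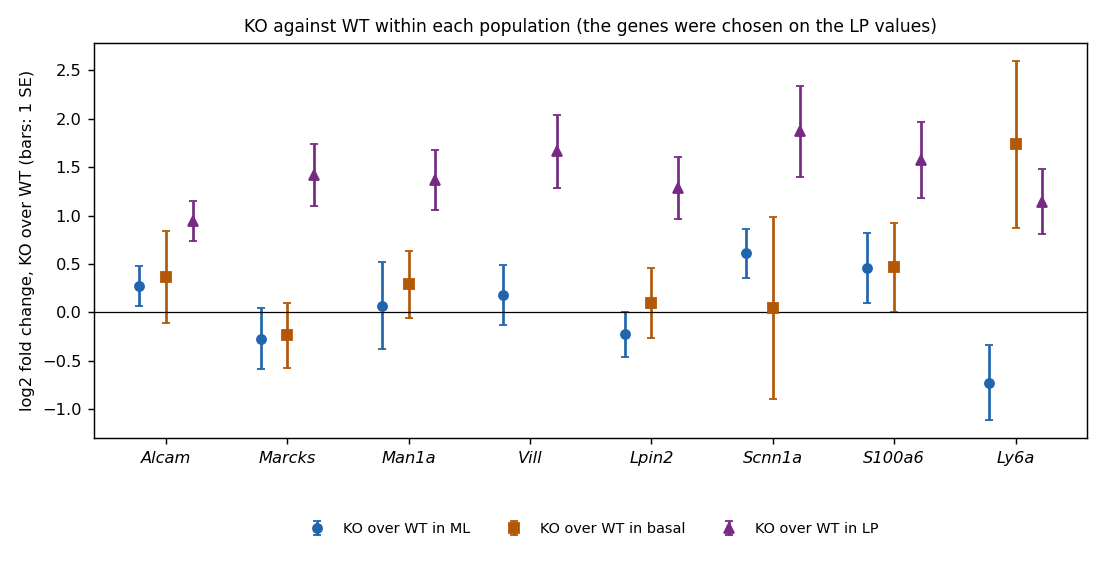
log2 fold change of KO over WT with 1 SE for each gene in LP, on which the genes were chosen, in ML and in basal cells (Vill was not tested in basal cells). Values in LP run from 0.94 to 1.87; in ML from -0.73 for Ly6a to 0.61 for Scnn1a; in basal cells Ly6a is at 1.74.

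Relatives of the 8 genes were called in both directions between ML and LP. The 8 family lists are counted without the members, and their medians in ML against LP lay between -0.42 and 0.15, against 0.03 over all genes. In the Ly6 and uPAR family 2 of 10 tested genes were called higher in ML than LP and 3 lower. Ly6d, a Ly6 surface antigen that is also in the hormone-sensing list, was at 2.95 (SE 0.48), and Cd59a, a complement inhibitor, at -1.32 (SE 0.36). Ly6d averaged 26.0 CPM in KO LP and 8.74 CPM in WT LP. In the S100 list, which holds S100 proteins and their partners, 1 of 10 genes was called higher and 1 lower, with S100a11 at 1.33 (SE 0.21) and the neutrophil protein gene S100a8 at -3.50 (SE 0.79).

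Of 14 tested genes of epithelial sodium transport, 2 were called higher and 3 lower in ML than LP. The higher ones were Slc12a2, the sodium-potassium-chloride cotransporter, at 3.02 (SE 0.34) and Tmprss2, a membrane serine protease, at 2.45 (SE 0.29). The partner subunit Scnn1b went the other way from Scnn1a, at -2.79 (SE 0.75, edgeR adjusted p = 0.0096), with 7.82 CPM in KO ML and 13.9 CPM in WT ML against 70.8 CPM in KO LP and 74.2 CPM in WT LP. The gamma subunit gene Scnn1g was at -1.01 (SE 0.71) and was not called. In glycerolipid synthesis 3 of 16 genes were called higher and 4 lower. The lipid droplet protein gene Plin2 was at -3.10 (SE 0.35), the monoglyceride lipase gene Mgll at -3.05 (SE 0.39) and the Lpin2 paralog Lpin1 at -2.15 (SE 0.43), all called lower. Lpin1 averaged 110.3 CPM in KO LP and 162.7 CPM in WT LP. In Golgi N-glycan processing 3 of 16 were called higher and 1 lower. Mgat5, a branching enzyme, was at 2.38 (SE 0.41), Mgat4a, another, at -2.27 (SE 0.22), and the Man1a paralog Man1a2 at 0.27 (SE 0.15), which was not called.

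Among villin, gelsolin and actin-bundling genes 4 of 14 were called higher and 1 lower. Eps8, an actin-capping protein gene, was at 3.19 (SE 0.36) and Pls1, fimbrin of microvilli, at 3.43 (SE 0.46). Among 13 MARCKS family and protein kinase C genes 1 was called higher and 6 lower. Prkce was at 1.83 (SE 0.37) and the adducin gene Add3 at -1.27 (SE 0.23). The Marcks paralog Marcksl1 was at -0.78 (SE 0.20, edgeR adjusted p = 0.0063), with 52.9 CPM in KO LP and 54.6 CPM in WT LP. Among 17 adhesion genes of the Alcam list 3 were called higher and 5 lower, with the tetraspanin gene Cd9 at 1.45 (SE 0.17) and Ceacam1 at -1.90 (SE 0.40). In KO against WT in LP no gene of the 8 family lists was called, as 0 of 11700 genes were. Every KO LP library was above every WT LP library for 1.5% of all genes. The same held for 1 of 10 tested genes of the S100 list and 2 of 13 villin, gelsolin and actin-bundling genes. It also held for 1 of 13 MARCKS family and protein kinase C genes, 1 of 14 adhesion genes and 0 genes of the other family lists.

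Over the 24 libraries, which share the difference between populations, the genes with the log2 CPM most like a member had Pearson r between 0.89 and 0.98, given as description. For Alcam they were Prlr (0.98) and Pls1 (0.97), and for Ly6a Ly6d (0.90) and Pls1 (0.90). For Vill they were Tbc1d30 (0.92) and Rassf6 (0.90), for Scnn1a Tuba8 (0.92) and Gclc (0.90), and for S100a6 Fam43a (0.93) and Fgfr2 (0.92). For Lpin2 they were Lama5 (0.94) and Tbx3 (0.91), for Man1a Vmp1 (0.92) and Glg1 (0.91), and for Marcks Robo1 (0.90) and Efs (0.89). Prlr averaged 6226 CPM in KO ML and 6276 CPM in WT ML, 887 CPM in KO LP and 504 CPM in WT LP, and 209.6 CPM in KO basal cells, against 268.7 CPM in WT basal cells. Robo1 averaged 91.4 CPM in KO basal cells against 85.3 CPM in WT basal cells, and 13.1 CPM in KO LP against 3.60 CPM in WT LP. Among the 8 genes r ran from 0.90 for Alcam with Ly6a to -0.11 for Marcks with Vill.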

How the data were processed

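Expected counts per gene, not normalized, were deposited by the authors for 24 libraries, per the file header and the values. Per the submitters' processing notes, the tools were cutadapt, STAR and RSEM, and the build mm10; their versions are not stated in the labels. At most 5.25% of a library's values were not whole, and all were rounded. Of the 24007 identifiers, 23780 are in GENCODE M21 (99.1%); 25 genes have no symbol.

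Tests used R 4.3.3 and edgeR 4.0.16 (quasi-likelihood F-test, two-sided, TMM scaling, default expression filter, robust dispersion, Benjamini-Hochberg adjustment over all tested genes at 0.05), and were tested on simulated data. Populations were compared in 1 fit of 24 libraries with genotypes averaged, and KO with WT within each population in its own 8 libraries. DESeq2 1.42.0, limma 3.58.1 (voom), other scalings, no filter, replicates or genotypes left out and a replicate block were alternatives. Levels are CPM on TMM scaling of all 24 libraries; log2 CPM for likeness used a prior count of 2. The limit of 3 counts covers counting error only, since amplified reads carry no molecular identifiers. The SE and SD values include the spread between libraries.

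The members, 12 marker lists and 8 family lists were chosen with earlier results of these data known. Named genes were the members, Id4, the 2 most correlated genes of each member, the 2 smallest p in ML against LP of each family list and up to 2 of the highest in LP of each marker list. Paralogs, the subunits of the channel, and marker genes named for their separation or direction in LP were added after their values were seen. Replicate numbers came from the titles, from which the replicate tags of the KO ML samples differ. Same-numbered KO and WT libraries deviated together in ML (r of 0.12 to 0.32), LP (0.11 to 0.34) and, more weakly, basal cells (0.055 to 0.14). Each KO library was most like the WT library of its number, except KO LP replicate 4, which was most like WT LP replicate 3. The main fits of KO against WT did not use this pairing, and the replicate block was an alternative. The chi-square per degree of freedom was at least 19.0 in 36 pairs of libraries of a group, so each was counted as a sample.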

Additional observations from a re-analysis of the deposited data

Results flagged for a closer look

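Of 48 groups of 4 libraries (8 genes in 6 groups), 2 had a library far from the others, and chance flags about 1 in 20 groups. Scnn1a was at 76.7 CPM in KO LP replicate 3, where the other KO LP libraries lay between 30.1 and 37.2 CPM. Lpin2 was at 112.6 CPM in KO basal replicate 1, where the other KO basal libraries lay between 68.8 and 75.1 CPM.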

How the results depend on the processing

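Among the values of the 8 genes between populations, 801 of the alternative values kept their direction and their side of the threshold, 12 lost the call and 3 uncalled ones changed sign; the cause was not tested. The genes called between ML and LP numbered 2602, against 4801 with limma voom, 954 in replicates 1 and 2, 1656 in replicates 3 and 4, 1470 in WT libraries and 721 in KO libraries, where 4 of the 8 members were called in place of 8. Between ML and basal cells they numbered 5044, against 3004 in replicates 1 and 2, 3140 in WT and 2463 in KO libraries. Between basal cells and LP they numbered 4012, against 2057, 2018 and 1883 in the same order. The fits of replicate pairs or of 1 genotype hold fewer libraries, while limma voom used all 24. With a replicate block the 3 counts were 2883, 5478 and 4320. For KO against WT in ML, 1 gene was called, against 0 with RLE size factors, 0 with the replicate block, 8 with DESeq2, 0 in replicates 1 and 2, 4 in replicates 3 and 4, and 0 when any library was left out. In basal cells 0 were called, also with the block, against 30 without the expression filter, 6 with DESeq2, 1 with limma voom and 13 in a fit of all 24 libraries. In LP 0 were called, against 8 with DESeq2, 1 in replicates 3 and 4 and 0 to 1 when a library was left out (1 without KO replicate 2). Uncalled values that changed sign were, for basal against LP, Scnn1a at 0.28 in WT libraries and S100a6 at -0.17 in replicates 3 and 4 and -0.28 in KO libraries. For KO against WT in ML they were Man1a at -0.083 with voom, -0.011 with the block and -0.24 to 0.36 without a library, Vill at -0.53 in replicates 1 and 2, and Lpin2 at -0.37 to 0.039 without a library. In basal cells they were Marcks at 0.041 with voom, 0.23 in replicates 3 and 4 and -0.42 to 0.14 without a library, Man1a at -0.18 with voom, -0.093 in replicates 1 and 2 and -0.014 to 0.49 without a library, Lpin2 at -0.063 to 0.35 without a library, and Scnn1a at -0.84 with voom, -0.26 with the block, -2.00 in replicates 1 and 2 and -0.61 to 0.46 without a library. The added Ly6a difference between ML and basal cells ran from -3.96 to -1.61. The 4 replicates of pooled animals limit what KO against WT could detect.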
